A study of Mus musculus with 22 samples.

Results

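The chow liver H3K4me3 landscape is the set of regions in which trimethylation of histone H3 at lysine 4 (H3K4me3) was called in livers of chow-fed mice. Every peak of the pooled chow H3K4me3 list was taken, which gave 13065 peaks among the 53539 peaks of all 5 deposited lists. Each peak was described by its width, its sequenced tags and its fold enrichment over an IgG control, and by whether it shared at least 1 base with a peak of the chow H3K27ac list or the chow H3K4me1 list.

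The series holds 22 samples of liver from wild type C57BL/6J mice, killed at 24 weeks of age after a night without food. Control mice ate chow throughout, and the others were moved at 8 weeks of age to a high-fat diet that lasted 16 weeks. Chromatin immunoprecipitation sequencing (ChIP-seq) of H3K4me3 was made in 2 chow libraries, and H3K27ac, H3K4me1 and mRNA were each measured in 3 libraries per diet. For each diet 1 IgG library pooled its 3 replicates, the sex of the mice is not given in the labels, and no high-fat-diet H3K4me3 sample was analysed here.

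H3K4me3 is written by the SET1 and MLL (KMT2) methyltransferase complexes and removed by demethylases of the KDM5 family, while KDM1 enzymes remove the lower methylation states. It is known as the mark of transcription start sites, above all those in CpG islands, where reader proteins such as TAF3 and the ING family bind it. H3K4me1 is known from enhancers and from the flanks of promoters, and H3K27ac, an acetylation of lysine 27, from promoters and enhancers in use. Whole liver is mostly hepatocytes by mass, with Kupffer, endothelial, stellate and bile duct cells beside them.

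The mRNA libraries showed the labelled tissue. The 10 hepatocyte markers summed to between 96311 and 121118 CPM (counts per 1000000 counts of a library) in the 6 libraries, against 153 to 353 CPM for 6 Kupffer cell, 129 to 234 CPM for 4 sinusoidal endothelium, 172 to 327 CPM for 5 stellate cell, 6.35 to 10.1 CPM for 4 bile duct and 8.64 to 14.1 CPM for 4 lymphocyte markers. In bulk liver, fewer cells of a type and less of a mark or RNA per cell cannot be told apart. Nothing in the labels says whether libraries with the same number came from 1 animal, so the spread between libraries may be in part technical.

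H3K4me3 tags were concentrated in strongly enriched regions. The pooled libraries kept 41368069 tags after duplicate removal, and 42.6% of them lay in the 13065 peaks, which cover 29.3 Mb of the mm9 genome. The chow H3K27ac peaks held 15.3% of their tags in 43.1 Mb, and the chow H3K4me1 peaks held 19.0% in 55.6 Mb. Filtering kept 49.2% of the H3K4me3 sites called, but 15.7% of the H3K27ac and 19.0% of the H3K4me1 sites. The shares of tags are therefore not from equally complete lists. Median fold enrichment was 29.0 for H3K4me3, 10.6 for H3K27ac and 10.2 for H3K4me1, all against the same chow IgG library of 13827021 tags. The 3 lists are each pooled calls with no replicate values, so their differences have no replicate error, and all intervals on shares of peaks below are 95% Wilson intervals that cover counting error only.

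The width of an H3K4me3 peak had a median of 2011 bases, with a range from 331 to 13831 bases and a lower and upper quartile of 1584 and 2595 bases. Tags per peak ranged from 99 to 13468 with a median of 1211, and fold enrichment from 3.86 to 142. In 9505 peaks (72.8%) the peak score stood at exactly 3100, and in 97 it was higher. The score could not rank those tied at 3100 and was not used. The summit lay in the middle 50% of the peak in 91.2% of peaks. The median gap between neighbouring peaks was 54670 bases, and 945 of 13044 neighbouring pairs (7.24%) were within 5000 bases of each other.

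Width and enrichment described different peaks. Across the 13065 peaks Spearman's rho was 0.63 between width and tags, 0.38 between tags and fold enrichment, and -0.03 between width and fold enrichment, as a description of peaks that come from the same 2 pooled libraries. The widest peak, chr6:90410861-90424691 (mm9), spanned 13831 bases with 10273 tags and a 39.9-fold enrichment. The next widest, chr5:143574293-143586155, spanned 11863 bases and held the most tags of any peak, 13468, at 37.7-fold. The third and the fourth, chr7:108468419-108479960 and chr19:5839642-5850873, spanned 11542 and 11232 bases at 53.1-fold and 28.8-fold. All 4 lay inside an H3K27ac peak and overlapped an H3K4me1 peak over 27.7% to 78.9% of their bases.

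The next in width was unlike these. It lay at chr2:26436257-26446996, spanned 10740 bases, held 220 tags per kb and was enriched 7.20-fold. It overlapped an H3K4me1 peak of 28473 bases, and the nearest H3K27ac peak was 43.2 kb away. By comparison, the widest peak held 743 tags per kb and chr5:143574293-143586155 held 1135.

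The 5 peaks of highest fold enrichment were of ordinary width. They lay at chr4:147221753-147223325, chr9:44727438-44729296, chr5:38650836-38652848, chr4:131864299-131866343 and chr19:4961858-4963190, with widths of 1333 to 2045 bases and enrichments of 134-fold to 142-fold. Each overlapped an H3K27ac peak, with enrichments for that mark of 20.9-fold to 29.6-fold against the list median of 10.6. An H3K4me1 peak was present at chr4:131864299-131866343, at 13.9-fold, while the other 4 had none within 17.7 kb. The same IgG background enters the fold of every list, and its part in this was not tested.

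Each of the other marks met fewer than 50% of the peaks. An H3K27ac peak overlapped 5659 of the 13065 H3K4me3 peaks (43.3%, interval 42.5 to 44.2%), and an H3K4me1 peak overlapped 5528 (42.3%, interval 41.5 to 43.2%). Both were present at 2768 peaks (21.2%), H3K27ac alone at 2891 (22.1%), H3K4me1 alone at 2760 (21.1%) and neither at 4646 (35.6%). H3K27ac was found at 50.1% of the peaks with H3K4me1 and at 38.4% of those without it (intervals 48.8 to 51.4% and 37.3 to 39.5%). Seen from the other lists, 5519 of 9651 H3K27ac peaks (57.2%) and 5565 of 15355 H3K4me1 peaks (36.2%) touched an H3K4me3 peak.

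Absence here means absence from a kept list. All lists used a MACS p-value cutoff of 1e-06 and then a false discovery rate limit of 10%, which retained 49.2% of the H3K4me3 sites called but 15.7% of the H3K27ac sites and 19.0% of the H3K4me1 sites. A weaker H3K27ac or H3K4me1 signal can therefore be present at a peak counted as having neither. Few such peaks were near misses in position. Of the 7406 H3K4me3 peaks without H3K27ac, 151 (2.04%) had an H3K27ac peak within 1 kb, and of the 7537 without H3K4me1, 396 (5.25%) had an H3K4me1 peak within 1 kb.

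The 4 classes differed in strength, and the class with neither mark was the narrowest. Median fold enrichment was 39.6 with H3K27ac alone, 33.8 with both marks, 25.3 with neither and 20.4 with H3K4me1 alone. Median width was 2375.5 bases with both marks, 2105 with H3K27ac alone (interval of the median 2073 to 2134), 2080 with H3K4me1 alone (2043 to 2114) and 1724 with neither. The class with both marks therefore held 25.4% of all H3K4me3 bases with 21.2% of the peaks, and the class with neither held 30.1% of the bases with 35.6% of the peaks. Median tags per kb were 789 with H3K27ac alone, 622 with both, 547 with neither and 453 with H3K4me1 alone.

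**Figure D1:**
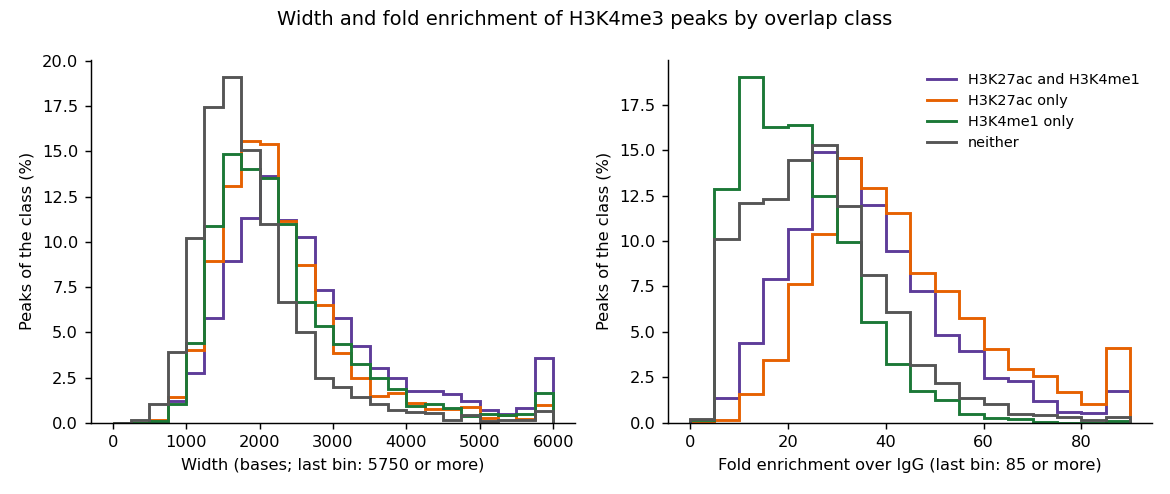
Distribution of width (left, bases) and of fold enrichment over IgG (right) for the 13065 chow H3K4me3 peaks, as the percentage of each overlap class per bin; lines are the 4 classes. The curve for peaks with H3K27ac alone lies farthest right in fold enrichment (median 39.6) and that for H3K4me1 alone farthest left (20.4), while peaks with neither mark are the narrowest (median 1724 bases).

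The share of peaks with H3K27ac was far higher at the top than at the bottom of every ranking of H3K4me3. From the lowest to the highest decile of fold enrichment it went from 6.57% to 81.9%, from the lowest to the highest decile of tags from 25.7% to 81.0%, and from the narrowest to the widest decile from 24.9% to 58.9%. Tags are counted without the control library, but which peaks entered each list was decided against the same chow IgG library, whose part in these shares was not tested. With the high-fat-diet H3K27ac list, made from other livers against another IgG library, the shares went from 15.4% to 72.4% by tags and from 6.88% to 41.1% by fold. In that list the top decile by fold was not the highest, since the ninth stood at 45.0%.

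H3K4me1 was more frequent at the top of the rankings by width and by tags, and less frequent at the top of the ranking by fold. Its share went from 24.5% in the narrowest decile to 63.4% in the widest. By fold enrichment it was 46.7% in the lowest decile, 51.8% in the second and 31.9% in the highest, and by tags it was 36.3% in the lowest decile and 49.4% in the highest, with 39.6% to 45.0% in the deciles between. The share of peaks with H3K4me1 alone went from 41.2% in the lowest decile of fold to 2.76% in the highest. At the medians of 2011 bases and 29.0-fold, 77.1% of 3250 wide and strong peaks carried H3K27ac against 17.9% of 3264 narrow and weak ones, and neither mark was found at 13.4% and 54.5% of them.

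**Figure D2:**
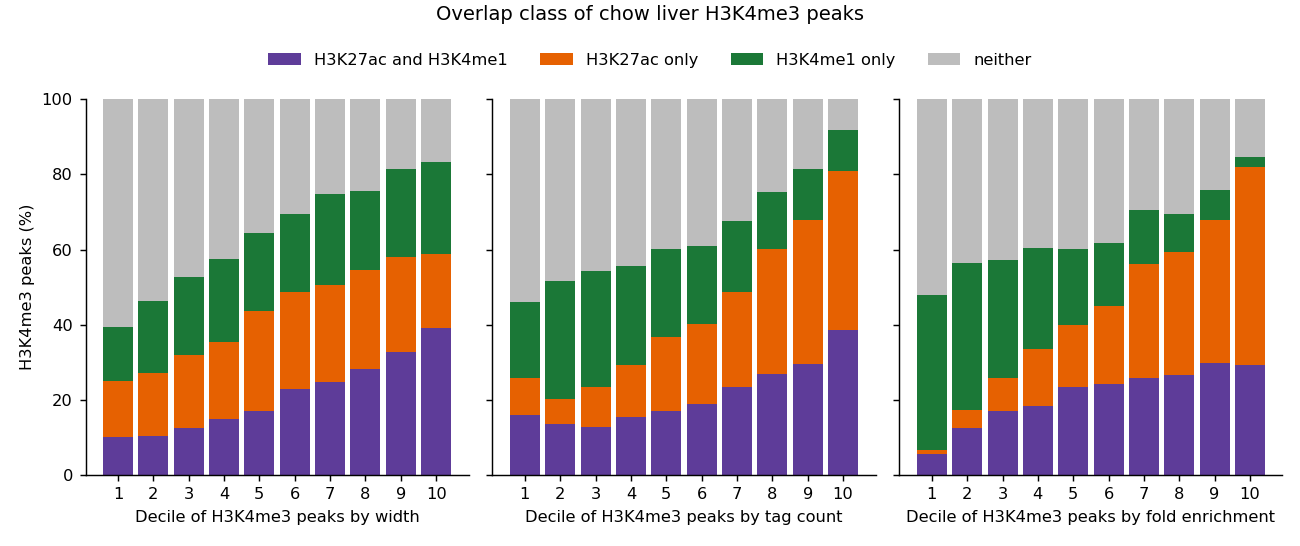
Overlap class of H3K4me3 peaks (percentage of peaks, stacked to 100%) in each decile of the list by width, tag count and fold enrichment, decile 1 being the lowest. The share with neither mark (grey) went from 53.9% to 8.19% along the deciles of tags, and H3K4me1 alone (green) went from 41.2% to 2.76% along the deciles of fold enrichment.

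Where the marks overlapped, they were laid out differently around the H3K4me3 peak. Among 5270 pairs of 1 H3K4me3 and 1 H3K27ac peak that touched only each other, the H3K27ac summit was inside the H3K4me3 peak in 97.0% (interval 96.5 to 97.4%), and the median distance between summits was 176 bases. Among 5009 such pairs with H3K4me1 the summit was inside in 84.7% (interval 83.7 to 85.7%), and the median distance was 681 bases. H3K4me1 summits were thinned out at the centre: 12.7% lay within 200 bases of the middle of the H3K4me3 peak, against an average of 16.8% per 200 bases on both sides between 200 and 800 bases away. For H3K27ac the same values were 30.5% and 17.8%.

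The other mark was usually the wider of a pair. The H3K27ac peak was wider in 85.6% and the H3K4me1 peak in 83.3% of pairs, with median width ratios of 1.31 and 1.37. Both ends of the H3K4me3 peak were passed in 62.9% of pairs with H3K27ac and in 61.7% of pairs with H3K4me1. The overhang was uneven, with medians of 652 bases on the longer side and 60 on the shorter for H3K27ac, and 865 and 58 for H3K4me1.

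**Figure D3:**
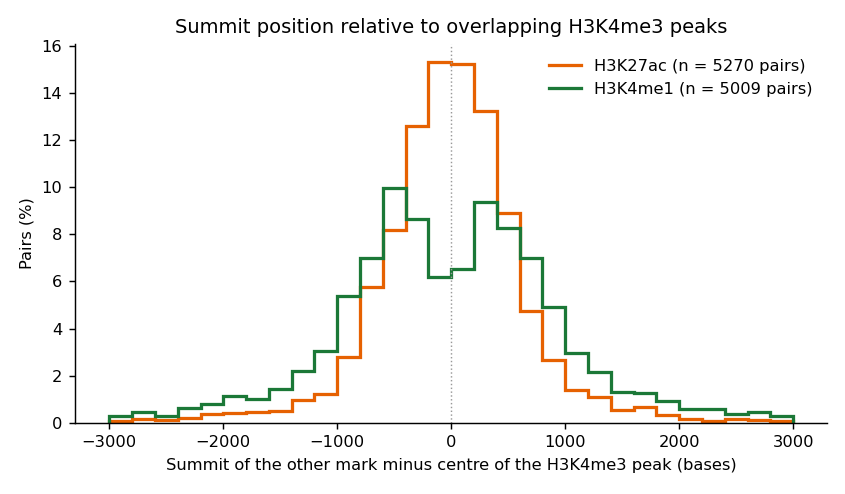
Position of the H3K27ac and H3K4me1 summits relative to the centre of the H3K4me3 peak they overlap (x axis, bases; y axis, percentage of pairs per 200 bases; the window holds the summits within 3000 bases). H3K27ac has 1 maximum at the centre, where 30.5% of summits lie within 200 bases, and H3K4me1 has a maximum on each side with a dip at the centre, where 12.7% lie.

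Wide peaks also occurred without the other marks. The widest with H3K27ac alone, chr9:44290371-44299607, spanned 9237 bases at 30.5-fold inside an H3K27ac peak of 25212 bases, with the nearest H3K4me1 peak 45.1 kb away. After the peak on chromosome 2 described above, the widest with H3K4me1 alone was chr10:79607957-79617270, with 9314 bases and 6851 tags at 23.4-fold. The widest with neither, chr4:151872960-151882853, spanned 9894 bases but held 119 tags per kb at 5.53-fold, and no H3K4me1 or H3K27ac peak lay within 166 kb. Another, chr2:31324469-31333814, was strong in tags, with 648 per kb over 9346 bases at 30.1-fold, and its nearest H3K27ac peak was 93.0 kb away. The peak at chr2:172978364-172987991, 9628 bases wide, counted as having neither although H3K27ac and H3K4me1 peaks began 0.057 and 0.117 kb beyond it.

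The autosomes resembled each other in their H3K4me3 peaks, and the X chromosome stood apart. Over the 19 autosomes, 35.9% to 50.7% of peaks carried H3K4me1 and 40.6% to 46.7% carried H3K27ac, and 30.6% to 40.7% carried neither. On the X, 260 of 394 peaks (66.0%, interval 61.2 to 70.5%) had neither mark, against 4382 of 12667 autosomal peaks (34.6%, interval 33.8 to 35.4%). Median tags per kb were 418 on the X and 576 to 638 on the autosomes, while the X's median fold was 34.5 and the autosomal range 27.2 to 31.2. The other 2 lists were thin there as well, with 84 H3K27ac peaks (0.870% of the list) and 113 H3K4me1 peaks (0.736%), against 3.02% of the H3K4me3 list.

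Tag counts moved with this difference. Of the X peaks, 260 were in the lowest tag group (99 to 879 tags), 112 in the middle one (880 to 1563) and 22 in the highest, where the autosomes had 4096, 4243 and 4328. Within these groups neither mark was found at 73.1%, 58.9% and 18.2% of X peaks and at 47.2%, 38.6% and 18.7% of autosomal peaks. H3K4me1 stayed less frequent on the X within the lower groups (21.2% against 43.1%, and 15.2% against 41.5%), where H3K27ac was at 9.23% against 24.3% and at 33.0% against 39.0%. In the highest group, with 22 X peaks, H3K27ac was at 77.3% on the X against 67.7% on the autosomes and H3K4me1 at 36.4% against 44.4%. The sex of the mice sets how many copies of the X a cell holds. It is not given, but the Y chromosome held 4 H3K4me3 peaks, of 234 to 436 tags, and mRNA of the Y-linked demethylase gene Kdm5d was at 17.1 to 22.2 CPM in all 6 libraries.

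On the high-fat diet fewer H3K4me3 peaks met a kept peak of the other marks. The high-fat-diet H3K27ac list overlapped 34.3% of them against 43.3% for chow, and the H3K4me1 list 23.2% against 42.3%. Those lists are shorter, with 6852 and 8616 peaks against 9651 and 15355, and were called against another IgG library of 10865549 tags. Both diets' H3K27ac lists overlapped 3398 H3K4me3 peaks, with the chow list alone at 2261 and the high-fat-diet list alone at 1078. The median H3K4me3 fold was 35.4, 39.1 and 26.9 in these 3 groups, and 22.3 in the 6328 peaks that neither diet's H3K27ac list overlapped. List lengths and diet cannot be told apart in these counts, so the diets were compared over the count tables.

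The share of H3K27ac counts in regions over H3K4me3 peaks was nearly the same on both diets. The count table held 11235 regions merged over the diets, and 6557 of them overlapped an H3K4me3 peak. These regions held 61.3%, 62.0% and 61.7% of the counts in chow replicates 1 to 3 and 62.7%, 61.2% and 61.8% on the high-fat diet. The groups overlapped, with means of 61.6% ± 0.345 and 61.9% ± 0.784 (SD, n = 3 each; exact permutation test, two-sided, p = 0.70, where 0.10 is the smallest p that 3 against 3 allows). Median level was 21.7 to 21.9 CPM per kb over H3K4me3 and 15.0 to 15.4 off it in chow libraries, and 21.4 to 22.4 and 14.6 to 15.4 on the high-fat diet.

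H3K4me1 held a smaller part of its counts over H3K4me3 peaks than H3K27ac did. Of 16834 merged H3K4me1 regions 6204 overlapped an H3K4me3 peak, with 46.7%, 46.6% and 45.4% of the counts in chow replicates 1 to 3 and 46.4%, 43.5% and 44.8% on the high-fat diet. High-fat-diet replicate 2 was the lowest and replicate 1 lay within the chow range. The means were 46.2% ± 0.731 and 44.9% ± 1.42 (SD, n = 3 each; exact permutation test, two-sided, p = 0.20), so the difference of -1.31 percentage points did not exceed the spread between libraries by this test. Median level over H3K4me3 was 15.4 to 16.0 CPM per kb on chow and 14.5 to 15.9 on the high-fat diet, and off it 13.0 to 13.4 and 13.1 to 14.0.

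The level of H3K4me1 was lower where H3K4me3 enrichment was higher, and that of H3K27ac showed no such order. With regions ranked by the fold of their strongest H3K4me3 peak, the median H3K4me1 level in chow libraries was 18.3 ± 0.730 CPM per kb (SD, n = 3) in the lowest quintile and 13.4 ± 0.0800 in the highest, with a lower value at each step between. H3K27ac was 20.7 ± 0.290 in the lowest quintile, 22.7 ± 0.157 in the middle and 20.7 ± 0.224 in the highest. Both levels come from read counts without an IgG term, per kb of the whole merged region. The median width of H3K27ac regions was 4303.5 bases in the lowest quintile and 2476 in the highest. For H3K4me1 regions it was 3031 and 3002 bases. The part of region width in these levels was not tested. Regions enter these tables only if a peak was called in them, so weak levels are missing.

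**Figure D4:**
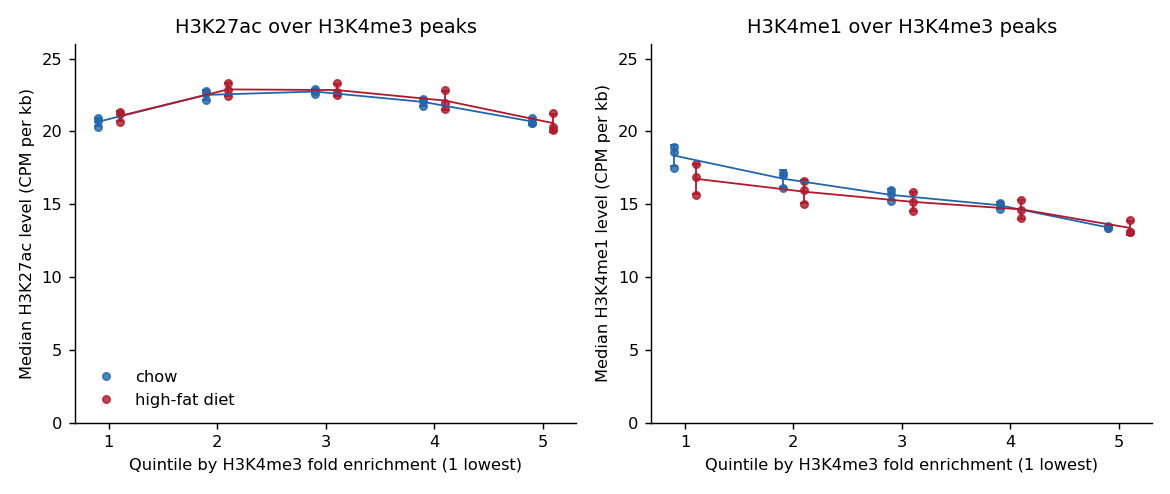
Median H3K27ac (left) and H3K4me1 (right) level in CPM per kb of merged regions over H3K4me3 peaks, by quintile of H3K4me3 fold enrichment; each point is 1 library, lines join the means of 3 libraries per diet and bars are SD. H3K4me1 went from 18.3 to 13.4 CPM per kb on chow and from 16.7 to 13.4 on the high-fat diet, and H3K27ac stayed between 20.6 and 22.9.

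In medians, H3K4me1 differed most between the diets where H3K4me3 was weakest, a comparison between quintiles that was not tested. From the lowest to the highest quintile of H3K4me3 fold the median log2 difference (high-fat diet minus chow) was -0.13, -0.08, -0.05, -0.03 and 0.01. Over all 6204 regions on H3K4me3 it was -0.06, and over the 10630 regions off H3K4me3 it was 0.05. The gap between the medians was -0.11 with all libraries, -0.05 without high-fat-diet replicate 2 and -0.16 without high-fat-diet replicate 1. In the lowest quintile the libraries of the diets overlapped, with 17.5 to 18.9 CPM per kb on chow and 15.7 to 17.7 on the high-fat diet. For H3K27ac the medians lay between -0.02 and 0.01 in every quintile.

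Few regions over H3K4me3 passed the test for diet. By edgeR's quasi-likelihood test with Benjamini-Hochberg adjustment over the whole table, at an adjusted p below 0.05, 33 H3K27ac regions over H3K4me3 rose and 14 fell on the high-fat diet, 0.717% of 6557. Over all H3K27ac regions 1.91% passed, 1.20% higher and 0.712% lower, and off H3K4me3 the share was 3.59% (102 higher and 66 lower of 4678). For H3K4me1, 14 regions over H3K4me3 rose and 62 fell, 1.23% of 6204, where 1.56% of all regions passed, 0.683% higher and 0.879% lower. Off H3K4me3, 101 rose and 86 fell. These counts moved when single libraries were left out. The 33 and 14 became 3 and 5 without chow replicate 1, 10 and 5 without chow replicate 2, 3 and 3 without chow replicate 3, 106 and 38 without high-fat-diet replicate 2, and 7 and 4 without high-fat-diet replicate 3. The 14 and 62 became 2 and 4, 1 and 4, and 2 and 15 without chow replicates 1, 2 and 3, 6 and 4 without high-fat-diet replicate 2, and 115 and 750 without high-fat-diet replicate 1. Libraries differed in depth, from 2037101 to 5772962 counts for H3K27ac and from 5487592 to 7380206 for H3K4me1.

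The largest H3K27ac decrease over an H3K4me3 peak was at chr17:14335677-14341859. Its levels were 95.5, 104 and 119 CPM on chow and 62.5, 68.6 and 63.2 CPM on the high-fat diet. Every high-fat-diet library was below every chow library, as required by the rule that named these regions, and the log2 difference was -0.71 (SE 0.0980, edgeR adjusted p = 0.000509). The H3K4me3 peak inside it, chr17:14338085-14341514, had 1795 tags at 20.3-fold. H3K4me1 at the same place differed by -0.12 (SE 0.0901), which did not pass (edgeR adjusted p = 0.514). The other 4 decreases, at chr12:29582545-29587023, chr7:31143903-31150185, chr2:167387164-167394634 and chr16:45843239-45845623, were between -0.53 and -0.50 on the log2 scale, over H3K4me3 peaks of 26.1-fold to 42.5-fold, and each of them did not pass without at least 1 of the chow libraries.

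H3K27ac rose most at chr3:7612271-7613965, a region that nearly coincides with an H3K4me3 peak of 1658 bases, 936 tags and 26.5-fold. Its levels were 20.9, 15.0 and 21.1 CPM on chow and 35.4, 38.1 and 33.5 CPM on the high-fat diet, a log2 difference of 0.87 (SE 0.146, edgeR adjusted p = 0.00279). DESeq2 put the difference at 0.88 but gave no adjusted p for this region, so that fit was not counted as a pass. At chr1:94727530-94733817 the levels were 69.7, 63.4 and 81.2 CPM on chow and 125, 126 and 137 CPM on the high-fat diet, a log2 difference of 0.84 (SE 0.0946, edgeR adjusted p = 4.21e-05). The H3K4me3 peak there, chr1:94727291-94729939, was weak, with 897 tags at 13.1-fold, and overlapped H3K4me1 but no H3K27ac peak on chow. H3K4me1 rose there too, by 0.47 (SE 0.0867, edgeR adjusted p = 0.00567).

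In the other 3 named increases of H3K27ac, high-fat-diet replicate 1 was the highest library. At chr17:34322414-34326793 chow libraries held 88.8, 102 and 109 CPM and the high-fat-diet libraries 196, 133 and 140 CPM, a log2 difference of 0.61 (SE 0.115) that did not pass without chow replicate 1. At chr7:133843387-133850039 the levels were 75.02, 75.5 and 60.8 CPM on chow and 161, 84.7 and 88.8 CPM on the high-fat diet, over a wide and weak H3K4me3 peak of 5014 bases at 7.13-fold. The difference of 0.61 (SE 0.159, edgeR adjusted p = 0.0476) did not pass without high-fat-diet replicate 1, nor without any 1 of the chow libraries. It also did not pass with total counts or in DESeq2's Wald test (adjusted p = 0.460). At chr11:72113840-72117197 the difference was 0.58 (SE 0.122), and it did not pass without chow replicate 1 or 3 or high-fat-diet replicate 3. Of the 10 named H3K27ac regions, those at chr17:14335677-14341859 and chr1:94727530-94733817 passed in all 11 alternative fits.

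Among H3K4me1 regions over H3K4me3 the widest of the named decreases was chr14:66284885-66296029, with 11145 bases. Its levels were 165, 161 and 168 CPM on chow and 103, 133 and 99.6 CPM on the high-fat diet, a log2 difference of -0.56 (SE 0.0917, edgeR adjusted p = 0.00174). It was the one of the 10 named H3K4me1 regions that passed in all 11 alternative fits, and H3K27ac there differed by 0.01 (SE 0.102). The 4 larger decreases were narrow. At chr5:136364136-136365505, over an H3K4me3 peak of 697 tags at 12.4-fold, chow libraries held 34.0, 34.3 and 33.0 CPM and high-fat-diet libraries 22.4, 16.4 and 25.7 CPM, a log2 difference of -0.66 (SE 0.139). Those at chr1:156944728-156947285, chr17:25150131-25151783 and chr3:63098883-63101099 were between -0.64 and -0.57.

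None of the 5 named H3K4me1 increases spanned the whole H3K4me3 peak it overlapped. At chr3:21971934-21974228 chow libraries held 18.1, 16.5 and 18.2 CPM and high-fat-diet libraries 26.7, 32.6 and 23.4 CPM, a log2 difference of 0.65 (SE 0.143, edgeR adjusted p = 0.0157). The H3K4me3 peak it overlaps, chr3:21973336-21976789, had 2561 tags at 30.1-fold. The others, at chr5:122110660-122113598, chr11:21136143-21139069, chr17:33914912-33917250 and chr14:103499362-103503031, were between 0.50 and 0.57 on the log2 scale, over H3K4me3 peaks of 21.2-fold to 48.5-fold. Without chow replicate 1, and equally without chow replicate 2, 1 of the 10 named H3K4me1 regions passed, and without chow replicate 3, 2 did. Without high-fat-diet replicate 2, 4 passed, and without replicate 3, 7 did.

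Both marks passed over the same H3K4me3 peak in 4 places. They rose together at chr1:94727291-94729939, given above, and at chr9:45076303-45077820, by 0.58 for H3K27ac (SE 0.108) and 0.47 for H3K4me1 (SE 0.0969). They fell together at chr1:137714646-137718880, by 0.37 (SE 0.0896) and 0.52 (SE 0.0919) on the log2 scale. At chr9:61218221-61222920, a peak of 4700 bases and 2766 tags, H3K27ac rose by 0.43 (SE 0.0950) while H3K4me1 fell by 0.45 (SE 0.0905). These 4 were picked out after their values were seen.

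The overlap classes were made from chow peaks, so a region's class and its chow level are not independent. Regions over H3K4me3 peaks with H3K4me1 alone had a median H3K4me1 difference of -0.11, with 2 higher and 39 lower of 2729, and those with both marks -0.02, with 4 and 19 of 2843. With H3K27ac alone 7 were higher and 2 lower of 263, and with neither 1 and 2 of 369. Over all H3K4me1 regions 0.683% were higher and 0.879% lower. H3K27ac regions over peaks with H3K4me1 alone, which by definition lack a chow H3K27ac peak, had a median of 0.08, with 14 higher and 1 lower of 390. Those over peaks with neither, which lack one too, had 0.04, with 2 higher and 0 lower of 672. With both marks 13 were higher and 10 lower of 2654, and with H3K27ac alone 4 and 3 of 2841. Over all H3K27ac regions 1.20% were higher and 0.712% lower. These are given as values only.

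The genes that write, remove and read H3K4 methylation were looked at in mRNA, which was measured on both diets. Of 36 listed genes 35 were measured, in libraries of 19016275 to 45741794 counts. By edgeR's quasi-likelihood test 3 rose and 8 fell on the high-fat diet, 24 did not pass, and 25 of 35 differences were below 0. Over all 12909 genes tested 35.6% passed, 18% higher and 17.6% lower, so 11 of 35 is near the background. The counts became 1 and 5 without chow replicate 2 or 3, and 5 fell without high-fat-diet replicate 2. The median log2 difference was -0.14 for the list and 0.02 over all genes.

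Among the methyltransferases and the 4 core subunits of their complexes 1 gene passed, where 35.6% of all genes passed. Setd1b, also listed as a methyltransferase, was not measured. Of 5 methyltransferases Setd1a fell, from 44.4, 38.0 and 41.0 CPM on chow to 35.9, 32.0 and 27.4 CPM (log2 difference -0.38, SE 0.113, edgeR adjusted p = 0.0327). Every high-fat-diet library was below every chow library, yet the call was lost without any 1 of chow replicates 1, 2 or 3 or high-fat-diet replicates 2 or 3 (edgeR adjusted p from 0.0546 to 0.105). The MLL family genes appear under older symbols, Mll1 for Kmt2a, Wbp7 for Kmt2b, Mll3 for Kmt2c and Mll2, a name shared by Kmt2b and Kmt2d that was taken here as Kmt2d. They did not pass, with differences from -0.14 to 0.12. The core subunits Wdr5, Ash2l, Rbbp5 and Dpy30 did not pass either, with differences from -0.22 to 0.07.

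Of 9 subunits found in some of the complexes 2 rose, 2 fell and 5 did not pass, where 35.6% of all genes passed. Cxxc1, Wdr82, Hcfc1, Paxip1 and Ncoa6 were those that did not pass, with differences from -0.25 to -0.06. Men1, which encodes menin of the KMT2A and KMT2B complexes, was at 17.5, 17.4 and 15.8 CPM on chow and 26.3, 23.7 and 20.7 CPM on the high-fat diet, with no overlap (log2 difference 0.48, SE 0.108, edgeR adjusted p = 0.0103). Psip1, whose protein tethers menin to chromatin, was at 23.5, 25.3 and 24.1 CPM against 16.7, 15.3 and 16.7 CPM (log2 difference -0.58, SE 0.0841, edgeR adjusted p = 0.00150). Kdm6a encodes an H3K27 demethylase that is part of the KMT2C and KMT2D complexes. It was at 25.6, 27.3 and 28.3 CPM on chow and 19.9, 18.9 and 19.1 CPM on the high-fat diet (log2 difference -0.49, edgeR adjusted p = 0.00264). 2900092E17Rik (Pagr1a), another subunit of those complexes, rose by 0.52 (SE 0.131), a call lost without chow replicate 2 or 3.

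Among the demethylases, Kdm5a, which removes H3K4me3, was at 40.2, 43.9 and 44.1 CPM on chow and 28.6, 34.2 and 36.4 CPM on the high-fat diet (log2 difference -0.37, SE 0.103, edgeR adjusted p = 0.0254). Kdm1b, which removes the lower methylation states, was at 29.2, 27.7 and 27.05 CPM against 33.0, 37.5 and 40.9 CPM (log2 difference 0.41, SE 0.0964, edgeR adjusted p = 0.0125). Both lost the call without chow replicate 2 or 3, and Kdm5a also without high-fat-diet replicate 2 and with total counts. Kdm5b, Kdm5c, Kdm5d and Kdm1a did not pass.

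Of 11 readers 4 fell and 7 did not pass, where 35.6% of all genes passed, 17.6% lower. Spin1, whose protein binds H3K4me3 through Tudor-like repeats, was at 107, 113 and 120 CPM on chow and 68.8, 74.5 and 70.4 CPM on the high-fat diet (log2 difference -0.67, SE 0.0765, edgeR adjusted p = 0.000536). Ing2, a subunit of a histone deacetylase complex, was at 9.24, 8.21 and 9.89 CPM against 5.74, 5.69 and 4.83 CPM (log2 difference -0.75, SE 0.134, edgeR adjusted p = 0.00371). Chd1, a chromatin remodeller, was at 45.5, 54.0 and 51.9 CPM against 32.7, 34.4 and 35.6 CPM (log2 difference -0.56, SE 0.0893, edgeR adjusted p = 0.00233). Bptf, a subunit of the NURF remodeller, fell by 0.37 on the log2 scale (SE 0.121, edgeR adjusted p = 0.0439), and this call was lost in 5 of 11 alternative fits, with total counts and without any 1 of chow replicates 2 or 3 or high-fat-diet replicates 1 or 2. Ing1, Ing3, Ing4, Ing5, Taf3, Phf2 and Phf8 did not pass, with differences from -0.28 to 0.19.

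**Figure D5:**
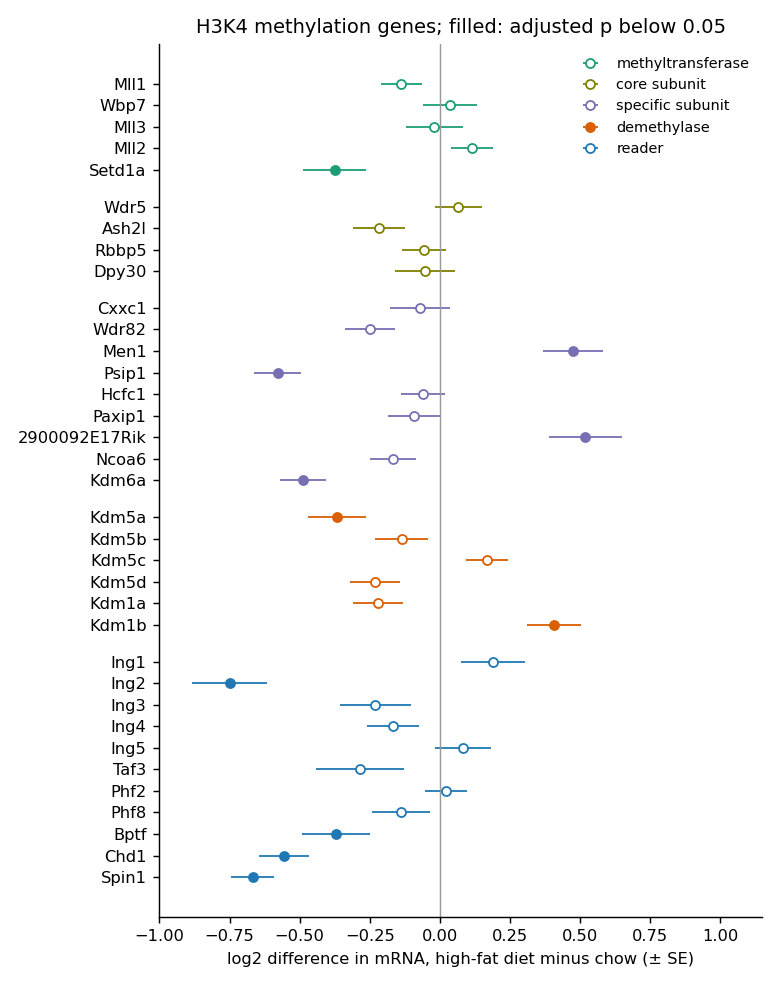
Difference in mRNA between diets (log2, high-fat diet minus chow, with SE) for the 35 measured genes of H3K4 methylation, grouped by role; filled points passed an edgeR adjusted p of 0.05. Setd1a, Psip1, Kdm6a, Kdm5a, Ing2, Bptf, Chd1 and Spin1 lie left of 0 and Men1, 2900092E17Rik and Kdm1b right of it.

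Markers of another tissue moved with diet in the same libraries. The 5 pancreas acinar markers summed to 897, 381 and 140 CPM in chow replicates 1 to 3 and 1.07, 90.5 and 0.985 CPM on the high-fat diet. The 4 that could be tested (Cpa1, Ctrb1, Pnlip and Cel) all fell, where 17.6% of all genes passed as lower. Amy2a5 was too low to test, and its libraries overlapped between diets. It was at 0.949, 0.590 and 0.161 CPM on chow and 0, 0.353 and 0 CPM on the high-fat diet. Kupffer cell markers summed to 153 to 295 CPM on chow and 184 to 353 CPM on the high-fat diet. The part of these in the gene differences above was not tested. Every diet comparison has 1 further limit. The labels give no batch for the libraries, so a batch that ran along with diet could not be told apart from it. The directories recorded in the peak-list headers differ by diet but do not name a batch.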

How the data were processed

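Groups were read from the sample titles, and the members and gene lists were chosen with earlier results of these data known. Reads were processed on mm9 with Bowtie 0.12.7 and MACS 1.4.0rc2 for ChIP-seq and TopHat 1.4.0 and HTSeq for mRNA, among tools in the submitters' processing notes that give no roles. Per the file headers, the authors called peaks with MACS on pooled replicates against the pooled IgG of the same diet with a p-value cutoff of 1e-06 and a false discovery rate limit of 10 percent. The deposited lists give width in bases, tags as counts, fold enrichment as a ratio over local IgG background, and a score, minus 10 times log10 of the p-value. Deposited count tables hold raw counts per merged peak or gene, read with 1 column per library. A merged region counted as over H3K4me3 when it shared at least 1 base with a peak. No mm9 annotation was used here, so peaks carry no gene names.

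Each count table was fitted whole with edgeR 4.0.16 in R 4.3.3 (filterByExpr, TMM factors, quasi-likelihood test, diet as the only term), with adjusted p-values by Benjamini-Hochberg over the table and a threshold of 0.05. CPM are TMM-scaled. The fits were tested on simulated data. Shares of counts were compared by an exact permutation test (scipy 1.17.1). Named regions were, for each mark, the 5 largest rises and falls over H3K4me3 that passed and whose libraries did not overlap between diets, with chromosome 18 left out, and named peaks were the 5 widest, 5 with most tags, 5 of highest fold and 5 widest per class. Alternatives were DESeq2 1.42.0 size factors and Wald test, total counts, no filter, a replicate block, leaving out each library, and other overlap and false discovery rate settings.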

Additional observations from a re-analysis of the deposited data

How the results depend on the processing

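The share of H3K4me3 peaks with H3K27ac, 43.3%, was 44.5% with peaks widened by 1000 bases, 45.3% for H3K4me3 peaks with a false discovery rate no higher than 1%, 34.3% with the high-fat-diet list, and 0.383% when the H3K27ac list was held to 1%, which keeps 78 of its 9651 peaks. The share with H3K4me1, 42.3%, was 38.8% when at least 50% of the peak had to be covered, 45.3% with widened peaks, 23.2% with the high-fat-diet list and 15.6% when the H3K4me1 list was held to 1%. Medians of the 4 classes were recomputed under 3 settings chosen after seeing the data, and the order of the classes by width, by tags and by fold was kept in each, while 15 of 36 medians left the interval of the first value. With the high-fat-diet lists the median fold went from 39.6 to 35.2 with H3K27ac alone, from 33.8 to 29.0 with both marks, from 25.3 to 27.045 with neither and from 20.4 to 22.9 with H3K4me1 alone. The difference in the H3K27ac share of counts, 0.290 percentage points, reversed to -0.154 when 50% of a region had to lie on H3K4me3 and to -0.121 without high-fat-diet replicate 1, with the exact permutation p at 0.80 in both, and ranged up to 0.660 without high-fat-diet replicate 2. With that 50% limit 14 H3K27ac regions were higher and 9 lower, and 3 H3K4me1 regions were higher. Leaving out single libraries gave 3 to 106 higher and 3 to 38 lower H3K27ac regions, 1 to 115 higher and 4 to 750 lower H3K4me1 regions, and 1 to 3 higher and 5 to 9 lower H3K4 methylation genes; the cause was not tested. Over the 10 named regions of each mark and the 11 called genes no difference changed sign. That is no test of their stability. In all of them the chow levels lay wholly above or wholly below the high-fat-diet levels. Leaving out a library could therefore hardly reverse a sign.

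Deviations of same-numbered chow and high-fat-diet libraries correlated at 0.02, -0.13 and 0.09 for H3K27ac, 0.06, -0.14 and -0.13 for H3K4me1, and 0.04, -0.04 and 0.14 for mRNA. With 3 libraries per diet these values cannot decide whether replicate numbers pair the libraries. With a replicate block 36 H3K27ac regions over H3K4me3 were higher and 14 lower, 20 H3K4me1 regions were higher and 85 lower, and the H3K4 methylation genes gave 3 higher and 8 lower. For the shares of counts a replicate block, chosen after seeing the data, took same-numbered libraries as pairs: the differences stayed at 0.290 percentage points for H3K27ac and -1.31 for H3K4me1, which was lower in 3 of 3 pairs, with exact sign-flip p of 0.75 and 0.25 (two-sided), 0.25 being the smallest that 3 pairs allow.

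H3K4me3 has 1 pooled list from 2 libraries and no replicate values, and intervals cover counting error only. Without the H3K27ac library of fewest counts, high-fat-diet replicate 1 with 2037101, 35 regions were higher and 17 lower, and the part of depth in the other counts was not tested.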
